A study of Rattus norvegicus with 6 samples.

Results

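The genes of the blood vessel wall were examined in hippocampal RNA of rats after treadmill training. The 10 genes were Vegfa, Kdr, Flt1, Tek, Angpt1, Angpt2, Pecam1, Cldn5, Cav and Cav2, among 35561 gene names on the array. They were found by gene name among the 41012 probes of a rat 4x44K array, and Cav is the array's spelling of Cav1. By name alone 9 genes with 16 probes were found. Pecam1 is written Pecam on the array, and its probe was added through that name, since the transcript it was designed on is Pecam1 in RefSeq, which gave 17 probes for the 10 genes.

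Male Wistar rats, 11 weeks old at the start, rested on the treadmill (CONT) or ran at 15 m/min (mild exercise, ME) or 40 m/min (intense exercise, IE), 60 min/day and 5 times/week, for 6 weeks. Habituation to running lasted 1 week for ME and 4 weeks for IE. Hippocampal RNA of 5 rats was pooled for each of the 3 groups, and each pair of pools was put on 2 arrays in opposite dye orientations. The labels place tissue collection 24 or 36 h after the last session and the methods 2 days after it. By the study's methods a pair of arrays carries identical RNA, so 1 replicate per comparison was counted and the spread between arrays was taken as technical. GEO's labels number the 2 arrays of a pair as separate pools. The 4 arrays against CONT lie on slide 1 and the IE vs ME arrays on slide 2, and signals were compared only within a slide.

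Vascular endothelial growth factor A, encoded by Vegfa, is the main growth signal of blood vessels and acts on endothelial cells through the receptor encoded by Kdr, while the product of Flt1 binds the same ligand tightly and limits it. Angiopoietin 1, the product of Angpt1, activates the endothelial receptor Tek and stabilizes vessels, and angiopoietin 2, the product of Angpt2, can oppose it and is known from remodelling vessels. Claudin 5 seals the tight junctions of the blood-brain barrier, Pecam1 is an adhesion molecule between endothelial cells, and caveolins 1 and 2 form the coat of caveolae, the small pits of the endothelial membrane.

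Each measurement comes from a probe of 60 bases. The sequences below, copied from the array files, are shown because probes of 1 gene gave different signals or ratios, and each reads its own stretch of the transcript. The first Vegfa probe begins with the start codon, in capitals. For Cav, capitals mark the 55 bases that 2 of its probes share, so these are not independent readings of the gene.
Vegfa A_44_P300751: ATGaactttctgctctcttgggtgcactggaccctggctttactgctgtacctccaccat
Vegfa A_43_P15572: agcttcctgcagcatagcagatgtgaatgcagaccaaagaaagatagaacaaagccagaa
Angpt2 A_43_P15980: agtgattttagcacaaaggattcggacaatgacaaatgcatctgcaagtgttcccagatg
Angpt2 A_44_P419123: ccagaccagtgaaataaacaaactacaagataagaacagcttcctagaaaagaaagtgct
Cav A_44_P240781: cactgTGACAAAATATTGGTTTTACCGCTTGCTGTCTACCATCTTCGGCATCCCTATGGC
Cav A_44_P285741: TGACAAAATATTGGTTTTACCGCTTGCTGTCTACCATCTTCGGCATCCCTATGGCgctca

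The files place these probes on the rat build rn3, with no exon annotation used here. Vegfa A_44_P300751 lies at chr9:10519066-10519125, and Vegfa A_43_P15572 spans chr9:10525902-10526287, which is 386 bases for a probe of 60, so the genome interrupts it. The Angpt2 probes lie on chromosome 16, A_44_P419123 over chr16:75923195-75927588, A_43_P15980 at chr16:75939504-75939563 and the remaining probe, A_44_P792166, at chr16:75942238-75942297. The overlapping Cav probes lie at chr4:43130614-43130673 and chr4:43130619-43130678, and the last, A_44_P209817, at chr4:43131539-43131598. The G and C content of the 17 probes ranged from 35% to 55%, against a median of 43.3% over all probes.

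No probe of the 10 genes passed the call in any comparison. A probe was called where Cy5/Cy3 was at least 1.5 on one array of the pair and at most 0.75 on the other, with the scanner software's p below 0.01 on both. That p comes from an error model of a single array, so it compares 2 pools on that array and is no test across rats. In ME vs CONT 0 of 17 probes were called, against 0.122% of all 40922 probes tested. In IE vs CONT the count was 0 of 17, against 0.0293% of 40957 probes, and in IE vs ME 0 of 17, against 0.0732% of 41009. With so few probes called over the whole array, a count of 0 among 17 does not set these genes apart.

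Most of the ratios lay near 0. Turned so that a positive log2 ratio means more RNA in the exercised pool (or in IE, for IE vs ME), the median over the 17 probes was -0.01 in ME vs CONT, -0.03 in IE vs CONT and 0.04 in IE vs ME, beside 0.0000, 0.0000 and -0.0016 over all probes. In each comparison 14 of the 17 probes were well above background in each of the 4 readings, that is in either dye on either array. Of these 14, the mean ratio was within 0.2 of 0 on the log2 scale for 12 in ME vs CONT, all 14 in IE vs CONT and 11 in IE vs ME. This limit is wider than the bulk of the array. Over all probes above background, the 5th and 95th percentiles were -0.15 and 0.16 in ME vs CONT. They were -0.15 and 0.14 in IE vs CONT and -0.15 and 0.18 in IE vs ME. Of the 14 member probes, 11, 13 and 9 lay between these percentiles, so the members were not closer to 0 than the array. The software's error gives each mean a 95% interval, which covers measurement error on these arrays and not the spread between rats. This interval lay wholly between 0.75-fold and 1.5-fold for 11 of 17 probes in ME vs CONT, 13 in IE vs CONT and 8 in IE vs ME. The share of all probes with such an interval was not counted.

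**Figure D1:**
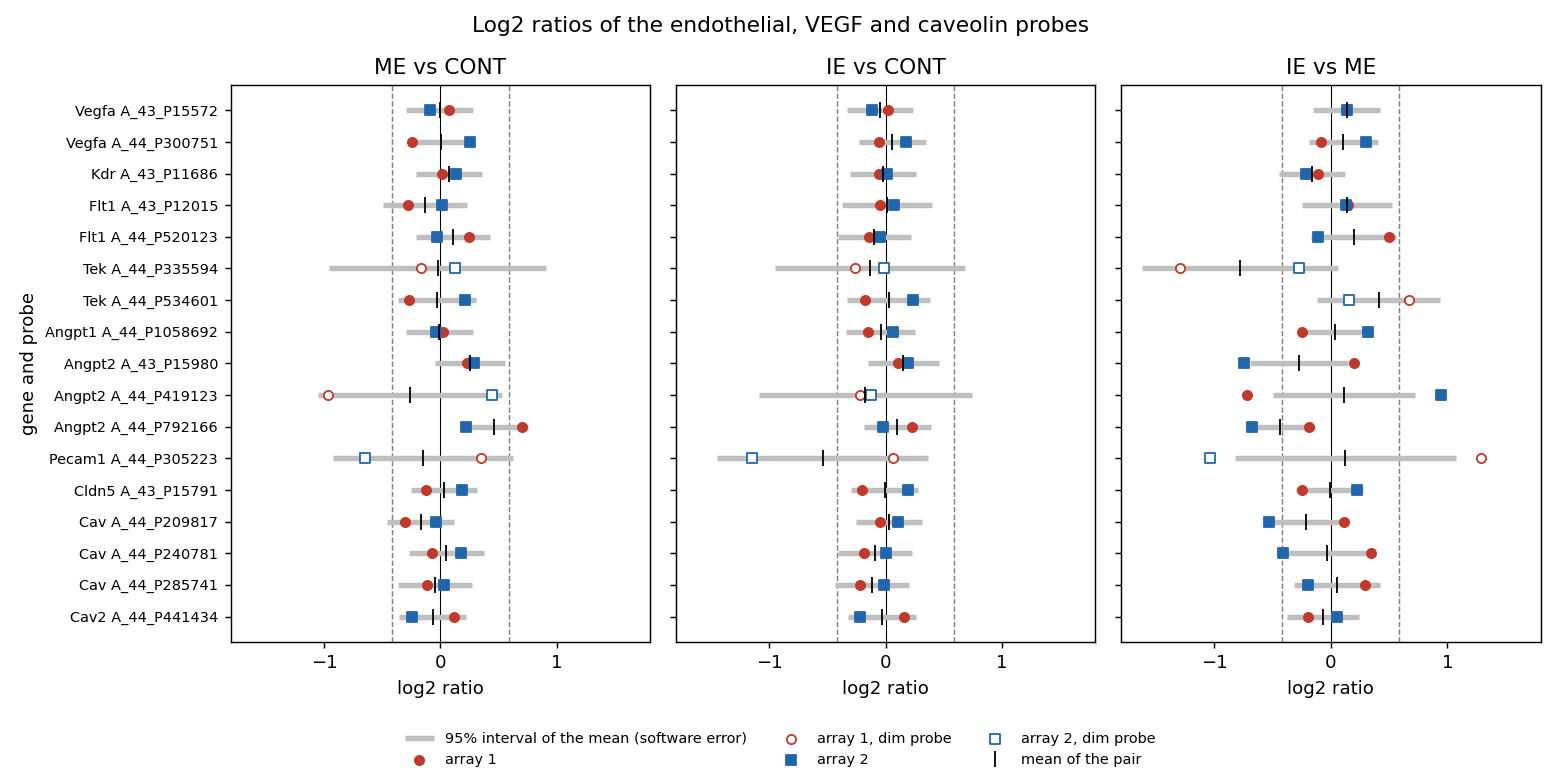
Log2 ratio of each of the 17 probes (rows) on array 1 and array 2 of each pair, with the mean and its 95% interval from the software's error. Dashed lines mark 1.5-fold and 0.75-fold, and open symbols mark probes that were not well above background in every reading. The points of most probes straddle 0, and Angpt2 A_44_P792166 lies to the right in ME vs CONT and to the left in IE vs ME.

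Vegfa, the growth factor itself, gave overlapping readings in the pools of slide 1. Probe A_43_P15572, printed as 10 spots per array, gave processed signals of 269 and 247 in ME and 255 and 263 in CONT on the ME vs CONT arrays, and 254 and 238 in IE against 251 and 259 in CONT on the IE vs CONT arrays. Each exercised pool read above CONT in one dye orientation and below it in the other. Its mean log2 ratio was -0.01 ± 0.12 (SD between 2 arrays) in ME vs CONT, -0.05 ± 0.10 in IE vs CONT and 0.13 ± 0.0035 in IE vs ME. In IE vs ME all 10 spots of both arrays were above 0, from 0.04 to 0.20 on array 1 and from 0.09 to 0.20 on array 2, yet no single spot had a p below 0.01. The 95% interval of this mean ran from 0.90-fold to 1.34-fold, so it does not separate the pools.

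The other Vegfa probe, A_44_P300751, had mean log2 ratios of 0.01 ± 0.35 in ME vs CONT, 0.06 ± 0.16 in IE vs CONT and 0.11 ± 0.27 in IE vs ME. Its arrays disagreed in sign in every pair, with -0.24 and 0.26 in ME vs CONT, and in each pair the pool labelled with Cy3 looked brighter. A dye effect would cancel in the mean of a swap and widen the spread between arrays.

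Angpt1 gave log2 ratios of 0.02 and -0.04 in ME vs CONT, -0.15 and 0.06 in IE vs CONT and -0.24 and 0.32 in IE vs ME, with signals from 115 to 135 in the 4 CONT readings, 116 and 119 in ME and 120 and 121 in IE on slide 1. The ME and IE readings lay within the CONT range.

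Angpt2 had the highest mean ratio of the 10 genes in ME vs CONT and the lowest in IE vs ME among probes measured above background, both from the same probe, the 1 of its 3 whose interval left out equality. Probe A_44_P792166 read 375 in ME against 230 in CONT on array 1, and 301 in ME against 258 in CONT on array 2. On the IE vs CONT arrays it read 262 and 257 in IE against 225 and 261 in CONT. Both ME readings lay above all 4 CONT readings of the slide, whereas 1 IE reading fell within the CONT range of 225 to 261 and the other, 262, just above it. All are technical readings of 1 pool per group, so this order alone does not separate the pools. The log2 ratio in ME vs CONT was 0.70 and 0.22 on its arrays, with software p-values of 0.00103 and 0.282. The mean was 0.46 ± 0.34, with an interval from 1.13-fold to 1.69-fold. In IE vs CONT the mean was 0.10 ± 0.17, with an interval from 0.88-fold to 1.31-fold.

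On slide 2 the same probe read 180 and 159 in IE against 206 and 253 in ME on array 1 and array 2. Both IE readings lay below both ME readings, but with 2 technical readings per pool this order alone does not separate the pools. The log2 ratio in IE vs ME was -0.19 and -0.67, with software p-values of 0.366 and 0.00206. The mean was -0.43 ± 0.34, with an interval from 0.60-fold to 0.91-fold. The difference between the 2 comparisons against CONT was -0.36, close to this direct value from other arrays, although all use the same RNA pools. The gap between the 2 values was 0.07 here. Over the 13 member probes above background on all 6 arrays it ran from -0.40 (Flt1 A_44_P520123) to 0.41 (Cav A_44_P209817), as large as the Angpt2 value itself. In ME vs CONT and in IE vs ME 1 of the arrays passed neither the fold range nor the p threshold, so the probe was not called.

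The second Angpt2 probe, A_43_P15980, read 93.4 and 96.4 in ME against 80.0 and 78.9 in CONT, and its log2 ratios of 0.22 and 0.29 had the same sign. Its mean was 0.26 ± 0.05 in ME vs CONT, with an interval from 0.97-fold to 1.47-fold, and 0.15 ± 0.06 in IE vs CONT. With normexp and loess these means were 0.12 and 0.07, and with loess and no background subtraction 0.13 and 0.07. In IE vs ME its arrays gave 0.20 and -0.75, with a software p-value of 0.0177 on the second, and a mean of -0.27 ± 0.67, a spread larger than the value, and with normexp and loess the mean was -0.05. The third probe, A_44_P419123, had signals of 6.38 to 14.6 on slide 1, was well above background in 1 of 4 channel readings there in each pair, and gave -0.97 and 0.45 in ME vs CONT. On slide 2 it was above background in all 4 readings and gave -0.72 and 0.94 in IE vs ME, with a mean of 0.11 ± 1.18. Its arrays thus had opposite signs, and its mean did not share the sign of the other Angpt2 probes in IE vs ME.

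Among the receptors, Kdr, which carries most of the VEGF signal, was bright and precise. It read 4204 and 4145 in ME and 3744 and 4016 in IE, beside 3775 to 4170 in the 4 CONT readings. The log2 means were 0.07 ± 0.09 in ME vs CONT, -0.03 ± 0.05 in IE vs CONT and -0.16 ± 0.07 in IE vs ME. Both IE vs ME arrays lay below 0, at -0.11 and -0.21, with software p-values of 0.586 and 0.309 and an interval from 0.74-fold to 1.09-fold.

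Flt1 was measured by a pair of probes with opposite signs against CONT. In ME vs CONT the means were -0.13 ± 0.20 for A_43_P12015 and 0.11 ± 0.20 for A_44_P520123, and in IE vs CONT 0.01 ± 0.09 and -0.10 ± 0.07. In IE vs ME both means were above 0, at 0.14 ± 0.02 and 0.20 ± 0.44, and the arrays of the second disagreed in sign. The files place A_44_P520123 over chr12:7954639-7971736 and A_43_P12015 at chr12:8065567-8065626, so they read separate places of the gene.

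Tek, the angiopoietin receptor, was dim on slide 2. Probe A_44_P534601 was above background in all readings of slide 1, where its means were -0.03 ± 0.34 in ME vs CONT and 0.03 ± 0.29 in IE vs CONT, and in 3 of 4 readings of IE vs ME, where its mean was 0.41 ± 0.36. Probe A_44_P335594, above background in only 1 or 2 of 4 readings per pair, gave the opposite direction in IE vs ME, -0.78 ± 0.72. No direction of Tek was therefore measured in IE vs ME.

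Of the junction genes, Cldn5 had overlapping readings in all pools of slide 1. Its 4 CONT readings on slide 1 ran from 3281 to 3917, beside 3541 and 3946 in ME and 3393 and 3738 in IE. The log2 means were 0.03 ± 0.22 in ME vs CONT, -0.01 ± 0.28 in IE vs CONT and -0.01 ± 0.33 in IE vs ME, and the interval of the ME value ran from 0.84-fold to 1.24-fold. Pecam1 could not be measured, since its probe was above background in 2 of 4 readings per pair and gave 0.35 and -0.65 in ME vs CONT, 0.06 and -1.14 in IE vs CONT and 1.29 and -1.04 in IE vs ME.

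**Figure D2:**
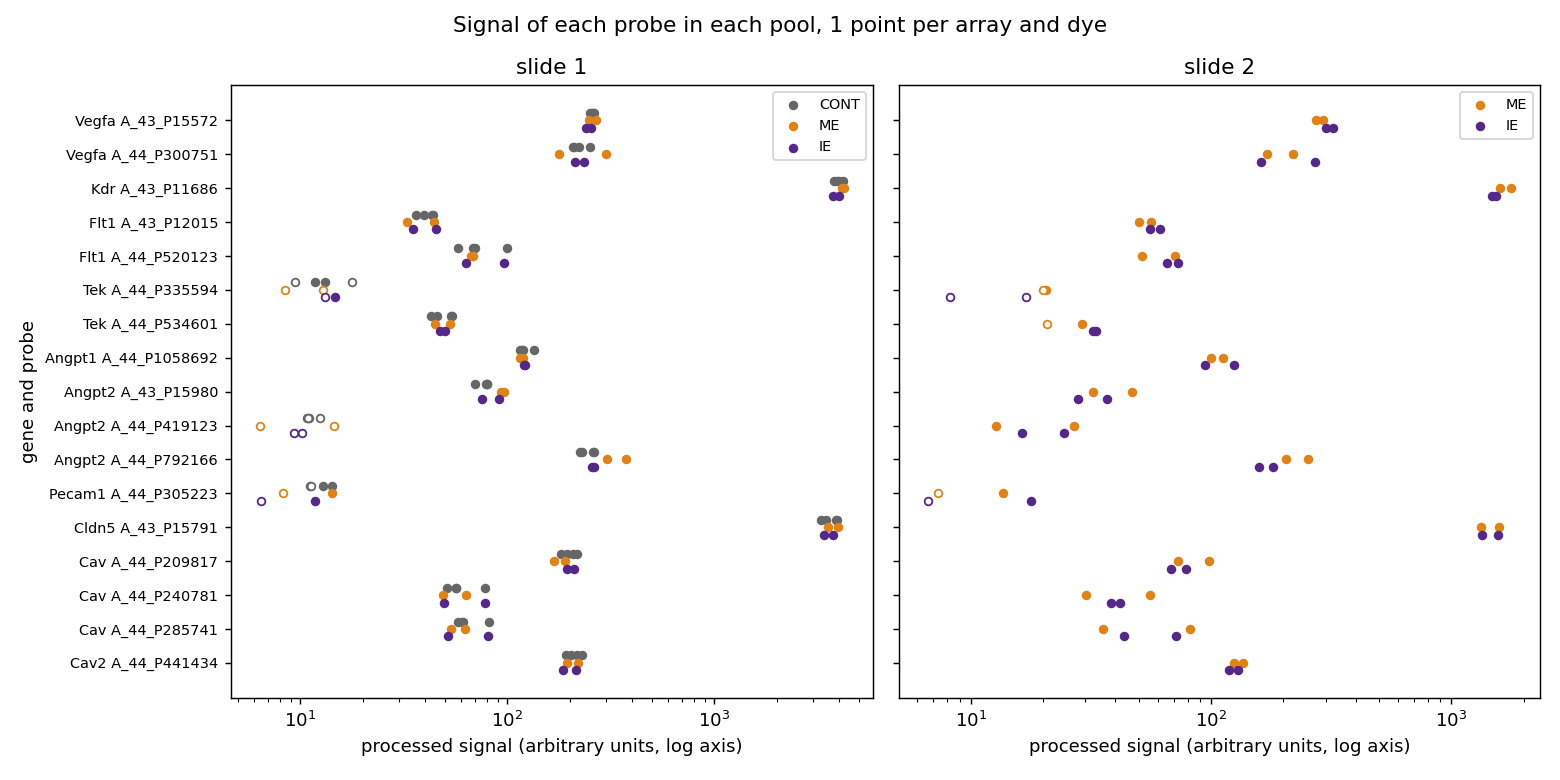
Processed signal of each probe on a log axis in the CONT, ME and IE pools, 1 point for each array and dye, with open points not well above background and the slides in separate panels, and signals of different probes are not comparable. On slide 1 the ME readings and the IE readings each overlap those of CONT for Kdr and Cldn5, and both ME readings of Kdr lie above both IE readings. Both ME readings of Angpt2 A_44_P792166, 301 and 375, lie above its CONT readings. These are technical readings of 1 pool per group, so their order alone does not separate the pools.

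Caveolin 1 (Cav) had no direction that its 3 probes shared in any comparison. The overlapping probes A_44_P240781 and A_44_P285741 gave means of 0.05 ± 0.17 and -0.04 ± 0.10 in ME vs CONT, -0.09 ± 0.13 and -0.12 ± 0.15 in IE vs CONT, and -0.04 ± 0.54 and 0.05 ± 0.34 in IE vs ME. On the IE vs CONT array 1, the 7 spots of A_44_P285741 kept of 10 ran from -0.39 to -0.06, and on array 2 the 10 spots ran from -0.30 to 0.18. The third probe, A_44_P209817, gave -0.17 ± 0.19, 0.03 ± 0.11 and -0.21 ± 0.45 in the 3 comparisons. Its IE vs ME arrays disagreed, at 0.11 and -0.53 with software p-values of 0.647 and 0.0311.

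Cav2, whose product partners caveolin 1, had means of -0.07 ± 0.26 in ME vs CONT, -0.03 ± 0.27 in IE vs CONT and -0.07 ± 0.17 in IE vs ME. A probe for the transcript fragment AI029942, A_44_P240129, lies 138 bases from A_44_P209817 but runs in the opposite direction on rn3, and was looked at after its values were seen. None of its readings stood well above background, with log2 ratios of -0.63 and -0.34 in ME vs CONT, -0.51 and -0.83 in IE vs CONT and -0.48 and 1.30 in IE vs ME.

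The 2 arrays of a pair differed in sign for 13 of 17 probes in ME vs CONT, 12 in IE vs CONT and 11 in IE vs ME. The share over all probes was not counted, so whether these counts are a trait of these genes was not tested. Averaging Cy5 over Cy3 over a pair, without turning the swapped array, cancels the pools and leaves any dye effect together with the noise of the arrays, which these values cannot separate. For Cldn5 this average was -0.15, -0.20 and -0.23 in the 3 pairs, and for Vegfa A_44_P300751 it was -0.25, -0.11 and -0.19. For Angpt2 A_44_P792166 it was 0.24, 0.12 and 0.24. The sign was the same in all 3 pairs for these 3 of the 13 member probes above background on all 6 arrays, 23.1%, and for 60.6% of the 24716 probes of the whole array above background there.

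The 3 Cav probes had opposite signs of this average on the 2 slides, from -0.13, -0.12 and -0.07 in ME vs CONT to 0.32, 0.38 and 0.24 in IE vs ME. The spread between arrays in IE vs ME was also wide for these genes, with a median SD of 0.34 over the 14 probes above background, beside 0.15 over all such probes. In ME vs CONT it was 0.19 against 0.13 and in IE vs CONT 0.14 against 0.14.

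**Figure D3:**
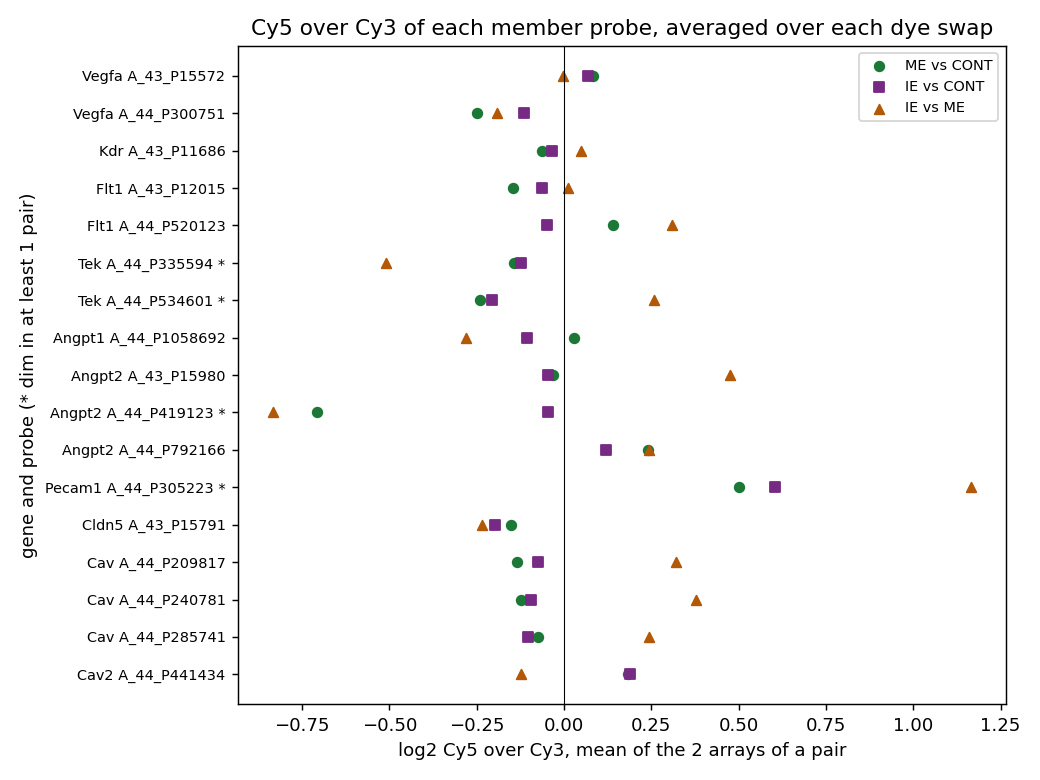
Log2 of Cy5 over Cy3 averaged over the 2 arrays of each of the 3 pairs, in which the pools cancel and dye effects and array noise remain, with a star on probes dim in at least 1 pair. Cldn5 and Vegfa A_44_P300751 lie below 0 in all 3 pairs, and the 3 Cav probes change from below to above 0 in IE vs ME.

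The wider lists held no called endothelial, pathway or caveola gene. For other genes of VEGF, angiopoietin and Notch signalling in vessels, all 19 of 19 genes were on the array, with 24 probes, of which 0 were called in any comparison, and the list median was -0.02 in ME vs CONT, -0.01 in IE vs CONT and -0.02 in IE vs ME. Among other endothelial and barrier genes, 16 of 18 genes were found, with 27 probes, 0 called and medians of 0.0048, -0.0041 and -0.05. The 6 other caveola genes had 10 probes, 0 called and medians of 0.08, 0.04 and -0.06.

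Among the probes of the vascular lists that were well above background in all readings of a pair, the lowest ratios in ME vs CONT belonged to Hey1, a Notch target, at -0.22 ± 0.39, and Notch1, at -0.12 ± 0.24. In IE vs CONT the lowest such ratios belonged to Tfrc A_44_P313767, for the transferrin receptor of the barrier, at -0.27 ± 0.28, with -0.04 and -0.0041 on the other Tfrc probes, and Notch1, at -0.23 ± 0.45. The highest there belonged to Icam2, an endothelial adhesion molecule, at 0.14 ± 0.17, and Anpep A_44_P500013, a peptidase of pericytes, at 0.13 ± 0.16, while the other Anpep probe was at -0.03 ± 0.09. In IE vs ME the highest under the same limit were Robo4, an endothelial guidance receptor, at 0.34 ± 0.03, and Slco1a5, an organic anion transporter, at 0.16 ± 0.59. None of these was called.

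The 1 call of the vessel wall fell on a smooth muscle gene. Of the 2 probes of Myh11, the smooth muscle myosin heavy chain, A_44_P489468 was called in ME vs CONT, with log2 ratios of 0.63 and 0.75, software p-values of 0.00288 and 0.000528, and a mean of 0.69 ± 0.08. It was the 1 probe called of 11 on the list of pericyte and smooth muscle markers, of which 9 of 10 genes were found, and the list median was 0.07. In IE vs CONT A_44_P489468 was at -0.08 ± 0.14, and in IE vs ME at -0.81 ± 0.42, not called because the software p-value was 0.0185 on array 1. The other Myh11 probe, A_44_P274021, also above background in all readings, was at 0.07 ± 0.04 in ME vs CONT, 0.06 ± 0.03 in IE vs CONT and 0.12 ± 0.02 in IE vs ME. The probes of Myh11 thus differed, and in IE vs ME their signs were opposite.

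Tagln, an actin-binding protein of smooth muscle, had the second highest ratio in ME vs CONT, 0.62 ± 0.27, and -0.03 ± 0.35 in IE vs CONT. Its IE vs ME arrays gave -0.71 and -0.55, with software p-values of 0.000985 and 0.00986. It was not called there, because the ratio of the second array stayed under 1.5-fold. Des, the intermediate filament of muscle, named here after its values were seen, was at 0.58 ± 0.19, -0.04 ± 0.06 and -0.54 ± 0.25 in the 3 comparisons.

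Over the whole list of pericyte and smooth muscle markers, 8 of 11 probes were above 0 in ME vs CONT. The count was 6 of 11 in IE vs ME, with a median of 0.0084, so the negative ratios of Myh11 A_44_P489468, Tagln and Des in IE vs ME were not shared by the list as a whole. The list pools pericyte and smooth muscle genes, so its median does not describe the muscle genes alone. Among these, the other Myh11 probe was at 0.12 in IE vs ME. Markers of the meninges, the membranes around the brain, had the signs of Angpt2 A_44_P792166 in both comparisons. Of the 12 probes of 8 meningeal genes, which include the fibrillar collagens, all were above background, 8 were called higher in ME vs CONT and 8 lower in IE vs ME, with medians of 1.01 and -0.94, and 0 were called in IE vs CONT, median -0.02. Their summed signal was 12512 and 12863 in ME against 7014 and 6446 in CONT, 6451 and 6598 in IE against 6685 and 6259 in CONT, and on slide 2 4507 and 4674 in IE against 8363 and 8594 in ME. The called genes were Ogn, up to 1.31 ± 0.14 in ME vs CONT, Col1a2, up to 1.21 ± 0.05, Col3a1, Igf2, Slc6a13 and Col1a1, the last by 1 of its 3 probes. The part of meningeal tissue in the Angpt2 ratios was not tested, and in pooled tissue more cells of a type and more RNA per cell cannot be told apart.

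Markers of the choroid plexus, the tissue that secretes cerebrospinal fluid, were called in all 3 comparisons. Of 9 probes, 3 were called higher in ME vs CONT, namely Kcnj13, Ttr and Sostdc1, 4 in IE vs CONT, with Otx2 added, and 2 in IE vs ME, Ttr and Sostdc1. Kcnj13 did not follow them in IE vs ME, at -0.12 ± 0.42, with 0.17 and -0.42 on its arrays. The medians of the list were 0.32, 0.64 and 0.42 in the 3 comparisons. The summed signal of the list was 1224 and 1231 in ME against 692 and 801 in CONT, and 4230 and 3950 in IE against 828 and 1061 in CONT. Markers of hippocampal neurons, present for 6 of 7 genes and above background in all 10 probes on slide 1, and of astrocytes, present for 5 of 6 genes, had 0 calls, with medians between -0.02 and 0.02. Blood cell markers, found for 3 of 5 genes, had 0 calls and medians of -0.02, -0.13 and -0.13.

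**Figure D4:**
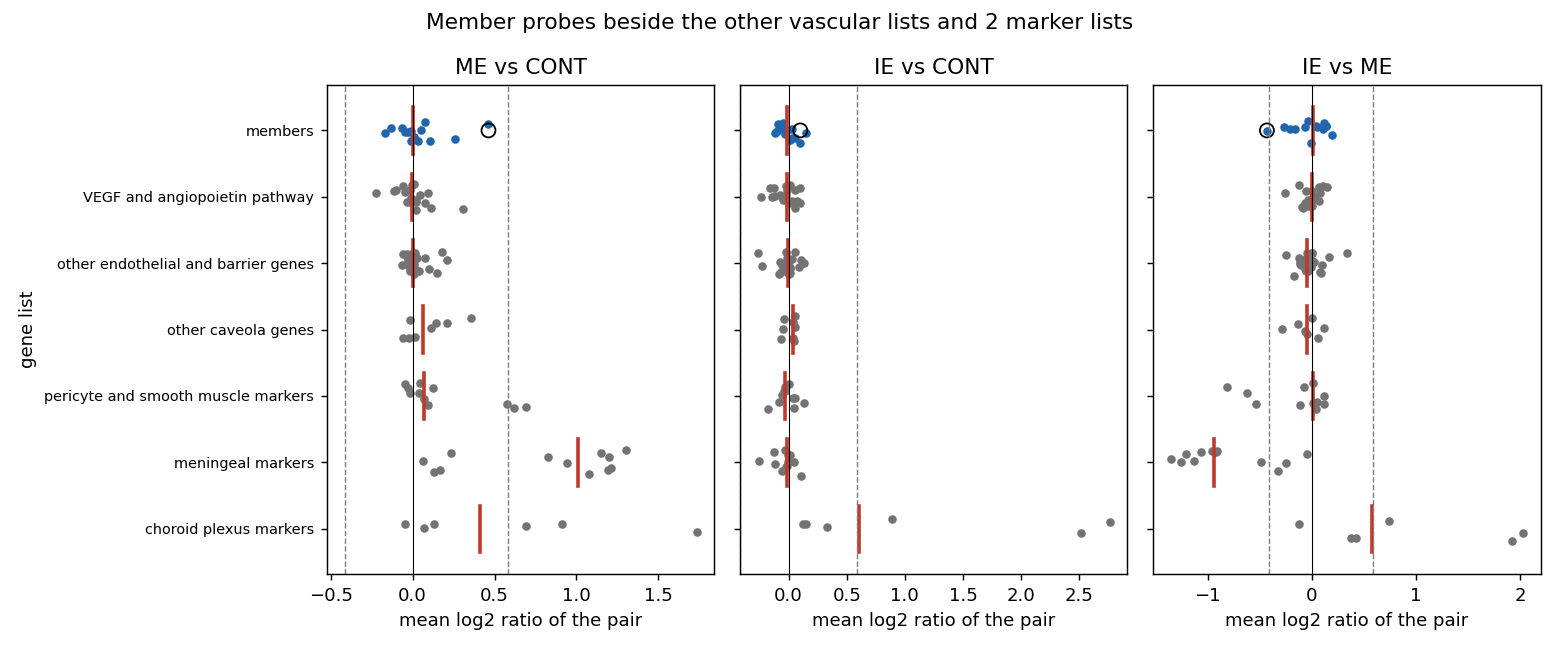
Mean log2 ratio of each probe well above background in every reading, by gene list (rows) and comparison (panels), with the list median as a red bar, the 10 genes in blue, Angpt2 A_44_P792166 ringed and dashed lines at 1.5-fold and 0.75-fold. The vascular lists centre on 0, while the meningeal list has medians of 1.01 in ME vs CONT and -0.94 in IE vs ME.

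A joint fit of all 6 arrays with limma, which shares the pools across comparisons and leaves 2 residual degrees of freedom, was run beside the calls. At a Benjamini-Hochberg adjusted p below 0.05 it called 0 of 17 member probes and 0 of all 40911 probes in each comparison. At an unadjusted p below 0.05 it held 4 of the 17 in ME vs CONT, 0 in IE vs CONT and 4 in IE vs ME. The share of all probes under that limit was not counted, so whether these counts set the genes apart was not tested. The lowest adjusted p from limma in ME vs CONT was 0.362, that of Angpt2 A_44_P792166, with a log2 value of 0.49, and its IE vs ME value was -0.41 with an adjusted p of 0.414. The unadjusted p of Angpt2 A_43_P15980 was 0.00918 in ME vs CONT and 0.0245 in IE vs ME, and the others under 0.05 were Kdr and Flt1 A_43_P12015 in both comparisons.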

How the data were processed

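Hippocampal RNA was measured on 6 arrays of 2 colours. Per the file headers, the authors used Agilent Feature Extraction for the spots, in version 9.5.3.1 (slide 1) or 11.0.1.1 (slide 2). The deposited log ratios are log10 of Cy5 over Cy3 after background subtraction and dye normalization by the software, which can leave gene-specific dye effects, and the deposited p-values come from its error model of 1 array. The deposited signals are the intensity of each spot, as raw and as processed values. The authors' value table holds log10 ratios of the processed signals. The slide 2 files name no genes, which were taken from slide 1 by probe.

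Control features (1639 of 45018) and outlier spots (92 to 302 per array) were left out, spots of a probe were averaged, p was the median over spots, and ratios were turned to log2. The call takes the fold range and p threshold from the study's methods and requires both on each array of a pair. Over the whole array it called 50 probes in ME vs CONT and 12 in IE vs CONT. The study lists far more genes for each comparison, so this call is stricter than the selection behind those lists. Signal over background stands in for depth, and on each array 66.5% to 74.4% of spots stood well above it in both dyes. No spot was saturated. The 95% intervals use the software's log ratio error of both arrays. The small number of arrays limits the precision. GEO's labels number the dye-swapped arrays as separate pools, but the study's methods describe 1 pool for each group, and the methods were followed. The joint fit used limma 3.58.1 in R 4.3.3, and the other steps used Python 3.11.15. The criteria and the joint fit were tested on simulated data.

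The genes and lists were chosen with earlier results of these data known. All probes of the 10 genes are named, and of the other lists those called, and the 2 highest and 2 lowest probes per comparison of the vascular lists among those well above background in every reading. Array gene names were matched with older names, and 11 of the 17 probes have an accession in the RefSeq table. Alternatives were no p threshold, the mean ratio, a symmetric 1.5-fold limit, 2 filters on dim probes, normexp (offset 50) with loess, loess without background subtraction, the value table, outlier spots kept, each array alone and the joint fit.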

Additional observations from a re-analysis of the deposited data

Results flagged for a closer look

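None of the 10 genes met a rule for a closer look, and groups of 2 arrays were not tested for outlying samples. The results below belong to the marker lists set beside Angpt2, and their log2 ratios differed between ME and IE. The IE vs ME arrays called lower values in IE for the meningeal genes Ogn (-1.35 for A_43_P16740 and -1.13 for A_44_P994238), Col3a1 (-1.26), Col1a2 (-1.21 for A_43_P12783 and -0.91 for A_44_P458851), Slc6a13 (-0.96) and Igf2 (-0.92). For Col1a1 A_44_P238421 both arrays lay above 0 in ME vs CONT (1.19) and below 0 in IE vs CONT (-0.02), and its IE vs ME value, -1.07, was called as well. The other 2 Col1a1 probes were not called, with 0.24 and 0.13 in ME vs CONT and -0.25 and -0.05 in IE vs ME. The same arrays called higher values in IE for the choroid plexus genes Sostdc1 (2.03) and Ttr (1.92), but not for Kcnj13 (-0.12). The part of these meningeal and choroid plexus genes in the ratios of the vessel genes was not tested.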

How the results depend on the processing

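No member probe was called under any alternative that used both arrays. Apart from the run with no p threshold and the joint fit, these kept the software's p below 0.01 on both arrays. In no comparison did a member probe have that p below 0.05 on both arrays, so those counts of 0 gave no separate check. By its mean ratio Angpt2 A_44_P792166 lay past the fold limit in IE vs ME, at 0.74-fold, and the p threshold left it uncalled. With 1 array alone the count ranged from 0 to 1 in ME vs CONT and from 0 to 1 in IE vs ME, the 1 being Angpt2 A_44_P792166, higher in ME on array 1 and lower in IE on array 2. In IE vs CONT it was 0 on either array. The median over the member probes ranged over the alternatives from -0.07 to 0.12 in ME vs CONT, from -0.06 to 0.0022 in IE vs CONT and from -0.11 to 0.11 in IE vs ME, so its sign is not measured. Leaving out the probe named Pecam, an alternative added after seeing the data, changed no count and gave medians of -0.01, -0.03 and 0.01. Angpt2 A_44_P792166 kept its sign under the 3 alternatives that recompute its ratio from both arrays (normexp with loess, loess without background subtraction, the joint fit), from 0.28 to 0.49 in ME vs CONT and from -0.41 to -0.26 in IE vs ME. Angpt2 A_43_P15980 ranged from 0.12 to 0.31 in ME vs CONT, from 0.07 to 0.09 in IE vs CONT and from -0.22 to -0.03 in IE vs ME. Of the 153 values of single probes under these 3 alternatives, 18 moved by more than 1 SD between arrays. No paired analysis was possible because, by the study's methods, both arrays of a pair hold the same RNA, and their numbers follow the dye orientation. With 1 pool per group no test across rats was possible, and Tek on slide 2 and Pecam1 throughout were limited by signals near background.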
